A study of Mus musculus with 4 samples.

Results

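The 9 genes described here encode the enzymes that place and remove N6-methyladenosine (m6A) on RNA and the subunits that work with them, 7 writers and 2 erasers, and they were taken as a set defined by this function. A cluster of IGF2BP3 eCLIP-seq reads belonged to a gene when its centre lay inside the gene span on the strand of the gene, by GENCODE M21 on mm10. By this rule the 9 genes held 423 of the 337234 clusters of replicate 1 and 265 of the 216354 clusters of replicate 2. All 9 were among the 12312 protein-coding genes with clusters in both replicates.

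The m6A mark is written on nuclear RNA by a complex built around the METTL3 and METTL14 pair, to which WTAP, VIRMA, ZC3H13, RBM15 and CBLL1 (HAKAI) are attached as adaptor and regulatory subunits. FTO and ALKBH5 take the methyl group off again, and reader proteins of the YTH and IGF2BP families bind RNA that carries it. In the mouse testis, loss of METTL3, METTL14 or ALKBH5 is known to disturb the formation of sperm.

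IGF2BP3 eCLIP-seq measures which RNA stretches are crosslinked to this reader and pulled down with it. Testes of wild-type C57BL/6 male mice aged 8 weeks, with germ and somatic cells together, were UV crosslinked. In each of 2 replicates, an IP library made with an antibody to IGF2BP3 stood against a size-matched input (SMInput) library from part of the same lysate without antibody, 4 samples in all. The labels do not say whether the replicates came from separate animals, while the paper calls them biological replicates. The totals behind the listed values were 5133438 IP and 8706391 SMInput reads in replicate 1, and 4637612 IP and 16696122 SMInput reads in replicate 2. The SMInput of replicate 2 was thus the deepest library. In a tissue sampled whole, fewer cells of a type and less RNA per cell cannot be told apart.

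The labelled tissue was checked by the presence of clusters on marker genes. All 5 spermatid markers (Prm1, Prm2, Tnp1, Tnp2, Acrv1), all 3 spermatocyte markers (Sycp3, Sycp1, Piwil1) and all 3 spermatogonial markers (Zbtb16, Dmrt1, Kit) had clusters in both replicates. So did the 3 Sertoli cell markers (Sox9, Amh, Wt1) and the 3 Leydig cell markers (Cyp17a1, Star, Insl3). Alb, Ins2 and Myh6, chosen as genes of other tissues, had 0 clusters in either replicate.

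A cluster was called a significant peak where the log2(fold change) of IP over SMInput and the −log10(P value) were both at least 2. The 9 genes held 26 significant peaks in replicate 1, 6.15% of their clusters against 4.92% of all clusters, and 43 in replicate 2, 16.2% against 13.2%. These peaks were spread unevenly over the genes. Alkbh5 and Cbll1 alone held 20 of the 26 peaks in replicate 1 and 23 of the 43 in replicate 2. The other 7 genes had 6 significant peaks among 379 clusters in replicate 1 and 20 among 224 in replicate 2, 1.58% and 8.93%. Most of these clusters were intronic, 228 and 101 of them in Fto, and so were 5 of the 6 and 15 of the 20 peaks. The 3′UTRs of these 7 genes held 1 and 4 significant peaks and their CDS 0 and 1. In the order Mettl3, Mettl14, Wtap, Virma, Zc3h13, Rbm15 and Fto, 3′UTR clusters numbered 0, 7, 2, 0, 2, 1 and 10 in replicate 1. In replicate 2 they numbered 2, 4, 5, 3, 2, 0 and 12. CDS clusters numbered 1, 3, 6, 26, 6, 7 and 8 in replicate 1. In replicate 2 these were 4, 4, 2, 21, 7, 3 and 13. The shares over all protein-coding genes were 1.94% and 10.7% of intronic clusters. For 3′UTR clusters they were 19.4% and 34.5%, and for CDS clusters 5.28% and 7.97%. The 7 genes were left after Alkbh5 and Cbll1 were set aside because of their peaks, which lowers the shares of the 7.

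By gene, 4 of 9 had a significant peak in replicate 1, against 46.1% of the 12312 genes, and 7 of 9 had one in replicate 2, against 64.6%. Alkbh5, Fto, Cbll1 and Virma had one in both replicates, 4 of 9 against 39.1% of the genes. Peaks of the replicates overlapped each other by at least 1 base in Alkbh5 and Cbll1, 2 of 9 against 16.6%. Each of these shares rests on 9 genes and none of them was tested.

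**Figure D1:**
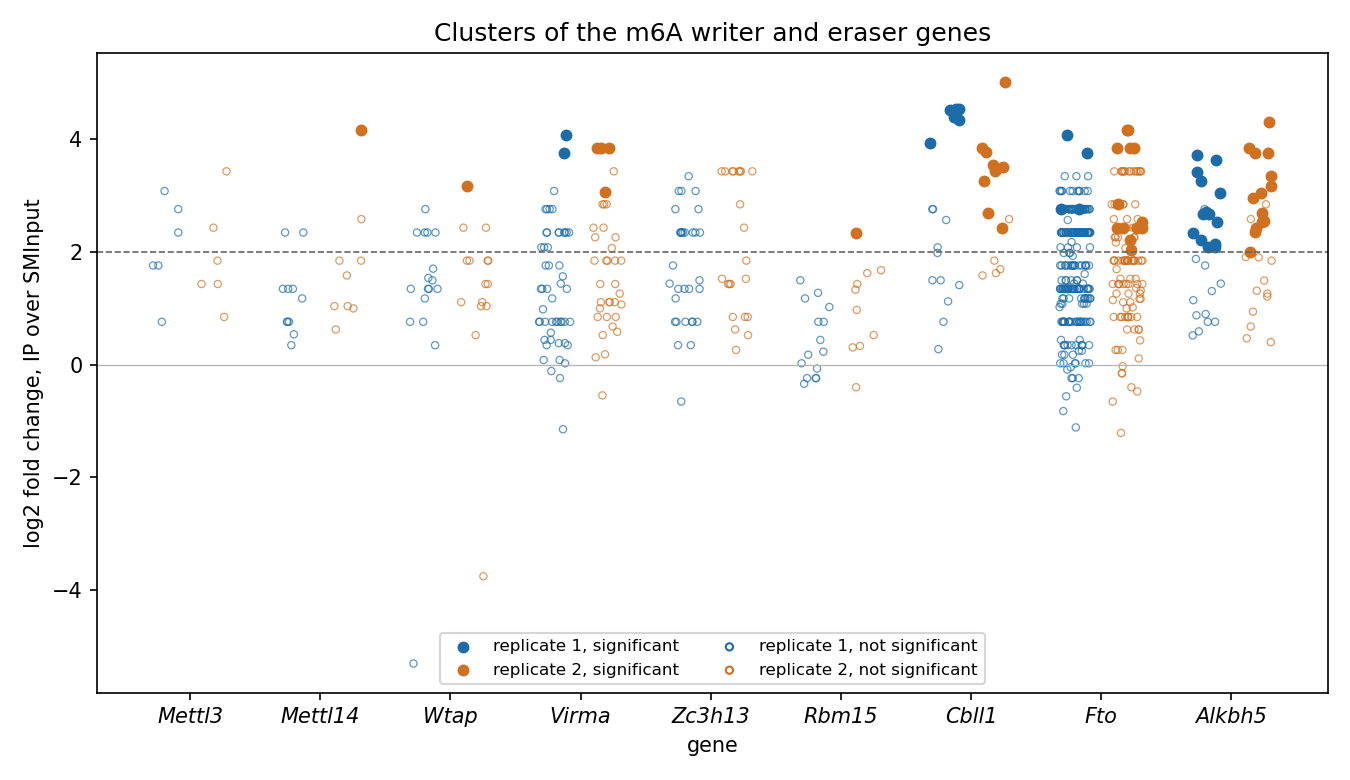
Each point is a cluster of a writer or eraser gene, placed by gene on the horizontal axis and by the log2 fold change of IP over SMInput on the vertical axis, with replicate 1 in blue, replicate 2 in orange, and filled points for significant peaks. The dashed line marks the threshold of 2, and filled points of both replicates are seen at Alkbh5, Fto, Cbll1 and Virma, while Mettl3 and Zc3h13 have none.

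Mettl3 and Mettl14 form the methyltransferase core, in which METTL3 holds the active site and METTL14 supports it and helps to bind the RNA. Mettl3 lies on the minus strand at chr14:52294841-52305128 and has an annotated 3′UTR of 141 bases. Its 6 clusters in replicate 1 and 6 in replicate 2 gave 0 significant peaks in either. The cluster of Mettl3 with the highest −log10(P value) was an intronic one at chr14:52297410-52297495 in replicate 1, with 5 IP reads against 1 SMInput read and a log2(fold change) of 3.08. In replicate 2 it was a 3′UTR cluster at chr14:52294881-52294907, with 3 IP reads against 1 SMInput read and a log2(fold change) of 3.43. Both are above the fold threshold and fall short on the P value, 1.54 and 1.46 on the −log10 scale.

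Few reads lay on Mettl3. The highest number in a cluster of replicate 1 was 5 IP and 3 SMInput reads, and of replicate 2 it was 4 IP and 8 SMInput reads. Low coverage and lack of enrichment of Mettl3 RNA cannot be told apart from these values.

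Mettl14 lies on the minus strand at chr3:123368297-123386108 and has the longest single 3′UTR of the writers, 6439 bases. None of its 11 clusters in replicate 1 was significant, but none had more than 6 IP reads, so low coverage and lack of enrichment cannot be told apart there either. In replicate 2, 1 of 9 clusters passed, a 3′UTR cluster at chr3:123368699-123368732 with 5 IP reads against 1 SMInput read. Its log2(fold change) of 4.17 had an interval of 1.01 to 9.73, and no cluster of replicate 1 overlapped it. All intervals given with fold changes are exact conditional 95% intervals from the reads of the 2 libraries, and they cover counting error only.

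The adaptor and regulatory subunits differed among themselves. Wtap, the adaptor that holds the core in nuclear speckles, lies on the minus strand at chr17:12966796-12994169. It had 0 significant peaks among 17 clusters in replicate 1 and 1 among 15 in replicate 2. That peak was intronic, at chr17:12971645-12971721, with 5 IP reads against 2 SMInput reads and a log2(fold change) of 3.17 (0.56 to 6.56).

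The Wtap cluster with the most recovered IP reads lay in the 3′UTR at chr17:12967029-12967160 in replicate 1. It held 25 IP and 13 SMInput reads, with a −log10(P value) of 3.32 and a Benjamini-Hochberg adjusted P of 0.0145 over all clusters of the table. Its log2(fold change) of 1.71 (0.68 to 2.80) stayed below the threshold. The overlapping cluster of replicate 2, at chr17:12967019-12967082, had 6 IP and 10 SMInput reads and a log2(fold change) of 1.11 (−0.63 to 2.71). The intervals overlap, and a difference between the replicates was not tested there.

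Virma, the scaffold that is known to direct methylation towards 3′UTRs and stop codons, spans 64.7 kb on the plus strand at chr4:11485958-11550684. It had 2 significant peaks among 52 clusters in replicate 1 and 4 among 36 in replicate 2. The peak with the most reads in replicate 1 was intronic, at chr4:11537268-11537344, with 10 IP reads against 1 SMInput read and a log2(fold change) of 4.08 (1.27 to 9.52). In replicate 2 it lay in the CDS at chr4:11498723-11498782, with 7 IP and 3 SMInput reads and a log2(fold change) of 3.07 (0.94 to 5.65).

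The significant peaks of Virma in the replicates did not overlap each other. The CDS peak of replicate 2 met a pair of replicate 1 clusters with 3 IP reads each, whose log2(fold change) values were 1.35 and 0.76. Over the CDS of Virma, the median log2(fold change) was 0.76 in 26 clusters of replicate 1 and 1.07 in 21 clusters of replicate 2. In its introns the medians were higher, 2.08 and 2.64, as they were over all protein-coding genes, where CDS clusters had medians of 0.76 and 0.93 and intronic ones 1.98 and 1.85. The intronic values of Virma rest on few reads, with a median of 3 IP reads a cluster in replicate 1 and 4 in replicate 2.

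Zc3h13, which joins RBM15 to WTAP, lies on the plus strand at chr14:75284373-75344426. It had 0 significant peaks among 32 clusters in replicate 1 and 0 among 22 in replicate 2. Its highest −log10(P value) was 1.91 in replicate 1, at chr14:75292067-75292115 with 6 IP reads against 1, and 1.64 in replicate 2, at chr14:75299453-75299496 with 4 IP reads against 2, both in introns. The log2(fold change) values of these clusters were 3.35 (0.30 to 8.87) and 2.85 (0.05 to 6.31). As for Mettl3, the clusters held few reads, and the highest recovered IP number was 8 in replicate 1 and 4 in replicate 2.

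Rbm15, an RNA-binding subunit that helps to place the complex on its targets, lies on the minus strand at chr3:107325421-107333673. Its 15 clusters in replicate 1 held 0 significant peaks, with a median log2(fold change) of 0.23, the lowest of the 9 genes. None of them reached the fold threshold. In replicate 2, 1 of 10 clusters passed, at chr3:107328108-107328140 in an intron, with 7 IP and 5 SMInput reads and a log2(fold change) of 2.33 (0.46 to 4.33). The replicate 1 cluster beneath it had 16 IP and 16 SMInput reads and a log2(fold change) of 0.76 (−0.33 to 1.86).

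Cbll1, which encodes the RING finger protein HAKAI, was the writer with the strongest peaks, and it lies on the minus strand at chr12:31484829-31499616. It had 6 significant peaks among 17 clusters in replicate 1 and 9 among 14 in replicate 2. All 6 of replicate 1 overlapped a significant peak of replicate 2. Among the 12312 genes, 188 (1.53%) had at least as many overlapping peaks in both replicates.

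The shared Cbll1 peaks of both replicates join into an unbroken block at chr12:31487298-31487770, in the coding part of exon 6, the last of 6 exons. Between the block and the 3′UTR lay 19 bases, and the 3′UTR runs from 31487278 down to 31484829 over 2450 bases. Replicate 1 has 6 peaks in it and replicate 2 has 5, with gaps within each replicate that the other fills. Overlaps between the replicates divide the block into 3 sites that touch each other.

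At the site nearest the stop codon, chr12:31487298-31487405, replicate 1 had 69 IP reads against 5 SMInput reads and a log2(fold change) of 4.55 (3.26 to 6.22). Replicate 2 had 38 IP reads against 12 SMInput reads there and a log2(fold change) of 3.51 (2.54 to 4.58). The −log10(P value) of this site was 22.3 in replicate 1, the highest of any cluster of the 9 genes, and 19.2 in replicate 2.

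At the middle site, chr12:31487406-31487638, the peak with the highest −log10(P value) had 54 IP and 4 SMInput reads in replicate 1, with a log2(fold change) of 4.52 (3.08 to 6.44). In replicate 2 it had 39 IP and 12 SMInput reads and a log2(fold change) of 3.55 (2.59 to 4.62). At the site farthest from the stop codon, chr12:31487639-31487770, these values were 4.35 (2.90 to 6.28) with 48 IP and 4 SMInput reads in replicate 1, and 3.26 (2.27 to 4.36) with 32 IP and 12 SMInput reads in replicate 2. Replicate 1 was higher than replicate 2 at all 3 sites, while the intervals of the replicates overlapped at each, and the sites adjoin, so they are not independent.

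Outside this block, Cbll1 had significant peaks in replicate 2 alone. Replicate 2 had 3 significant peaks in the 3′UTR and replicate 1 had 0 among its 3 clusters there. The strongest by fold change, at chr12:31485595-31485645, had 9 IP reads against 1 SMInput read in replicate 2 and a log2(fold change) of 5.02 (2.17 to 10.47). The replicate 1 cluster at the same place, with 7 IP reads against 2, had a log2(fold change) of 2.57 (0.18 to 5.87) and a −log10(P value) of 1.80, just short of the threshold. At chr12:31485757-31485834, replicate 2 had a log2(fold change) of 2.43 (1.02 to 3.93), and the overlapping cluster of replicate 1 had 0.76 (−0.85 to 2.37). The intervals overlap at both places. These calls alone do not show a difference between the replicates, which was not tested. The remaining 3′UTR peak of replicate 2, at chr12:31487042-31487058, had 12 IP and 4 SMInput reads and met no cluster of replicate 1. Its log2(fold change) was 3.43 (1.71 to 5.52). A further CDS peak of replicate 2, at chr12:31487922-31487972, had 18 IP and 10 SMInput reads and met no cluster of replicate 1.

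**Figure D2:**
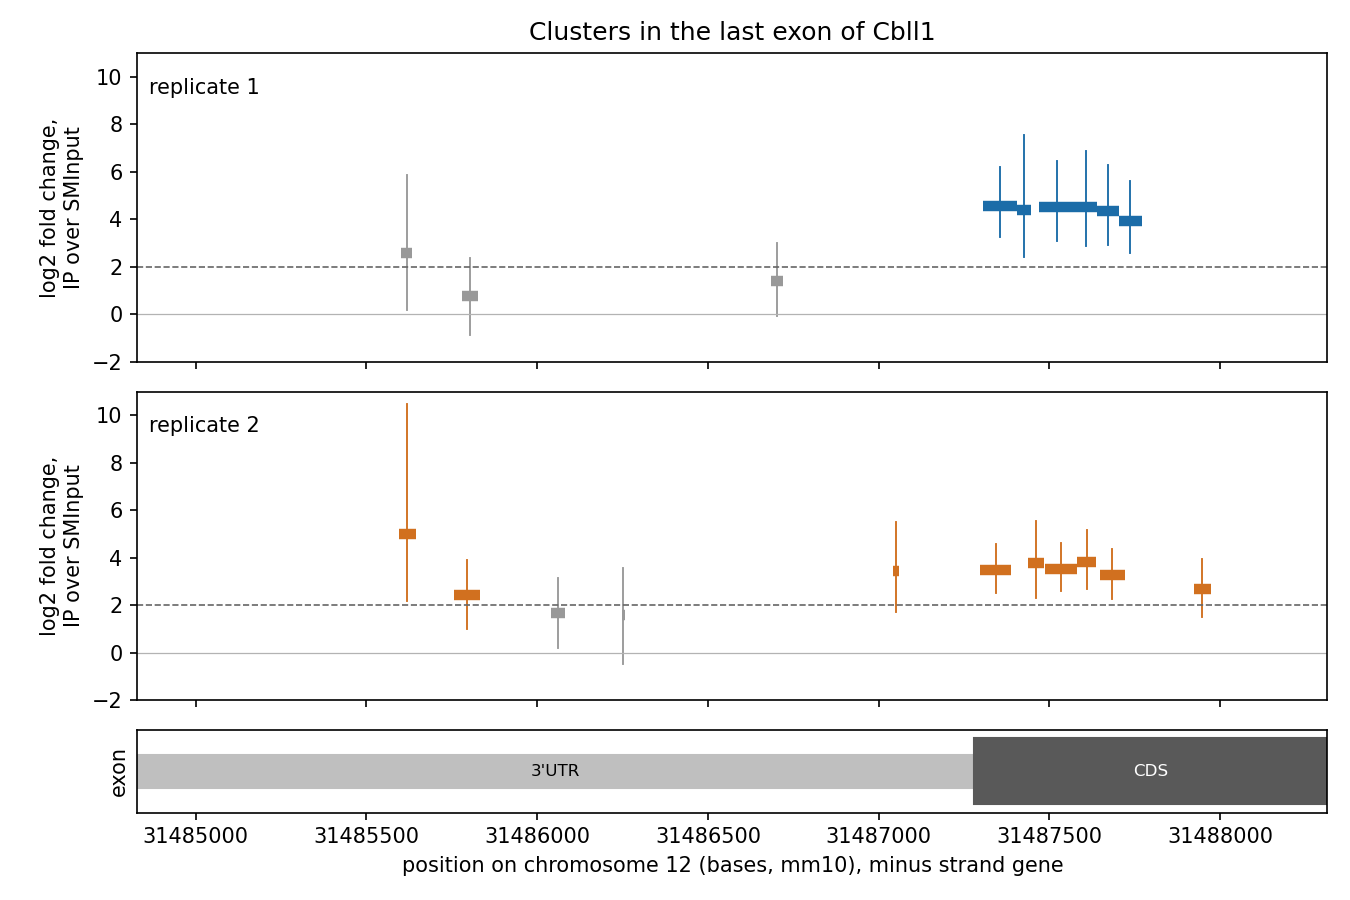
Clusters in the last exon of Cbll1 in replicate 1 (top) and replicate 2 (middle) are drawn as thick bars over their bases in mm10, at the height of their log2 fold change of IP over SMInput, with 95% counting intervals as thin lines and grey for clusters that were not significant. Colored bars of one or the other replicate cover the coding end of the exon from 31487298 to 31487770, with gaps within each replicate, and those in the 3′UTR belong to replicate 2.

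Fto, an eraser of m6A and of the related cap mark m6Am, is the longest of the 9 genes, 354.9 kb on the plus strand at chr8:91313525-91668439. It held the most clusters, 246 in replicate 1 and 126 in replicate 2, of which 228 and 101 lay in introns. Significant were 4 of the 246 and 13 of the 126, among them 3 and 10 in introns. Over all protein-coding genes, 1.94% and 10.7% of intronic clusters were significant. The median Fto cluster had 4 IP reads in either replicate, and the highest number was 12 in replicate 1 and 13 in replicate 2.

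The significant peak of Fto with the most IP reads lay in the 3′UTR in both replicates, but at different positions. In replicate 1 it was at chr8:91668028-91668079, with 10 IP reads against 1 SMInput read and a log2(fold change) of 4.08 (1.27 to 9.52). In replicate 2 it was at chr8:91667720-91667774, with 10 IP reads against 5 SMInput reads and a log2(fold change) of 2.85 (1.17 to 4.75). None of the 4 and 13 significant peaks of Fto overlapped any cluster of the other replicate, significant or not. The calls for Fto in the replicates therefore stand at separate places with few reads each. Over all genes, such an overlap was seen for 53.4% of significant peaks in replicate 1 and 41.7% in replicate 2. The mix of regions was unlike: in protein-coding genes 23.2% and 38.9% of significant peaks were intronic, in Fto 3 of 4 and 10 of 13.

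The CDS of Fto had lower values than the rest of the gene, and CDS clusters also lay below intronic ones over all protein-coding genes. Its 8 CDS clusters in replicate 1 had a median log2(fold change) of −0.03 and its 13 in replicate 2 a median of 0.85. In the introns these medians were 1.76 and 1.85, the same as the medians over all its clusters. No CDS cluster of Fto was significant in either replicate, where 5.28% and 7.97% of all CDS clusters were, and 8 and 13 clusters are few for such shares.

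Alkbh5, the eraser that the testis needs for normal sperm, had the most significant peaks of the 9 genes. It lies on the plus strand at chr11:60536381-60558512, with 4 exons in a single basic transcript and a 3′UTR of 4097 bases from 60554416 to 60558512. It held 27 clusters in either replicate, and 14 were significant in each. All 14 of replicate 1 and 13 of the 14 of replicate 2 lay in the 3′UTR, and the remaining one was an intronic cluster with 4 IP reads against 1.

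Of the 17 clusters in the Alkbh5 3′UTR in either replicate, 14 were significant in replicate 1, against 19.4% of all 3′UTR clusters, and 13 in replicate 2, against 34.5%. Only 14 of the 12312 genes (0.11%), Alkbh5 among them, had at least 14 significant 3′UTR peaks in replicate 1. In replicate 2, 22 genes (0.18%) had at least 13. This count may depend on the length of a 3′UTR and on the level of its RNA, and their part in it was not tested.

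Within Alkbh5, the 3′UTR had higher values than the rest of the mRNA. The median log2(fold change) of its 3′UTR clusters was 2.53 in replicate 1 and 2.54 in replicate 2, with ranges of 1.15 to 3.72 and 1.31 to 4.31. Over the 7 clusters of its CDS and 5′UTR in either replicate, the medians were 0.88 and 0.94, the highest values were 1.76 and 1.85, and 0 were significant. Over all protein-coding genes the 3′UTR was also higher, with medians of 1.76 and 1.85 against 0.76 and 0.93 in the CDS, and 5.28% and 7.97% of CDS clusters were significant, and 7 clusters are few for such shares. The median 3′UTR cluster had 22 IP and 6 SMInput reads in replicate 1, where the median of the CDS and 5′UTR was 11 IP and 10 SMInput reads. In replicate 2 these medians were 20 IP and 13 SMInput reads in the 3′UTR and 10 IP and 15 SMInput reads outside it.

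Significant peaks of both replicates overlapped at 5 sites in the Alkbh5 3′UTR. The sites lay 1143, 1391, 3268, 3373 and 3918 bases into the 3′UTR, so 3 of the 5 were in its last part. The largest log2(fold change) was that of the fourth, chr11:60557748-60557839, with 31 IP reads against 4 SMInput reads and a log2(fold change) of 3.72 (2.22 to 5.68) in replicate 1. In replicate 2 it had 30 IP reads against 8 SMInput reads and a log2(fold change) of 3.75 (2.60 to 5.09). The values of the replicates differed by less than the counting error.

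The first site, chr11:60555541-60555584, had log2(fold change) values of 2.53 (1.03 to 4.32) in replicate 1 and 3.04 (1.68 to 4.56) in replicate 2, with 17 and 16 IP reads. At the next, chr11:60555776-60555833, they were 3.05 (2.00 to 4.27) and 2.53 (1.74 to 3.35), with 44 and 37 IP reads. The last site, chr11:60558319-60558358, had 15 IP reads in either replicate and values of 2.67 (1.02 to 4.72) and 3.17 (1.72 to 4.82). At all 5 sites the intervals of the replicates overlapped, and neither replicate was the higher one throughout.

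The third site, chr11:60557628-60557747, covers a run of alternating T and G of 58 bases, and it adjoins the fourth. Its peak with the highest −log10(P value) had 34 IP and 13 SMInput reads and a log2(fold change) of 2.15 (1.19 to 3.20) in replicate 1, and 34 IP and 21 SMInput reads and 2.54 (1.72 to 3.40) in replicate 2. Reads inside such a repeat can be hard to place in the genome, and their part in this site was not tested.

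Of the 14 significant peaks of Alkbh5 in each replicate, 10 in replicate 1 and 8 in replicate 2 overlapped a cluster of the other replicate. For 7 and 6 of them that cluster was significant. Over all genes, 53.4% and 41.7% of significant peaks overlapped any cluster. A significant one was overlapped by 5478 of 16579 in replicate 1 and 5269 of 28494 in replicate 2. The 3′UTR peak with the largest log2(fold change), 4.31 (2.11 to 7.52) at chr11:60556688-60556737 in replicate 2, met no cluster of replicate 1. Several more stretches of the Alkbh5 3′UTR had clusters in both replicates that passed in 1 of them. At chr11:60557878-60557945, replicate 2 had 50 IP and 45 SMInput reads and a log2(fold change) of 2.00, at the threshold, while the replicate 1 cluster had 54 IP and 37 SMInput reads and 1.31 (0.68 to 1.95). At chr11:60555196-60555293, replicate 1 had 54 IP and 14 SMInput reads and 2.71 (1.84 to 3.67), and the replicate 2 cluster had 51 IP and 49 SMInput reads and 1.91 (1.31 to 2.50). In both cases the intervals overlap. A call in a single replicate does not by itself show a difference between the replicates, which was not tested.

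**Figure D3:**
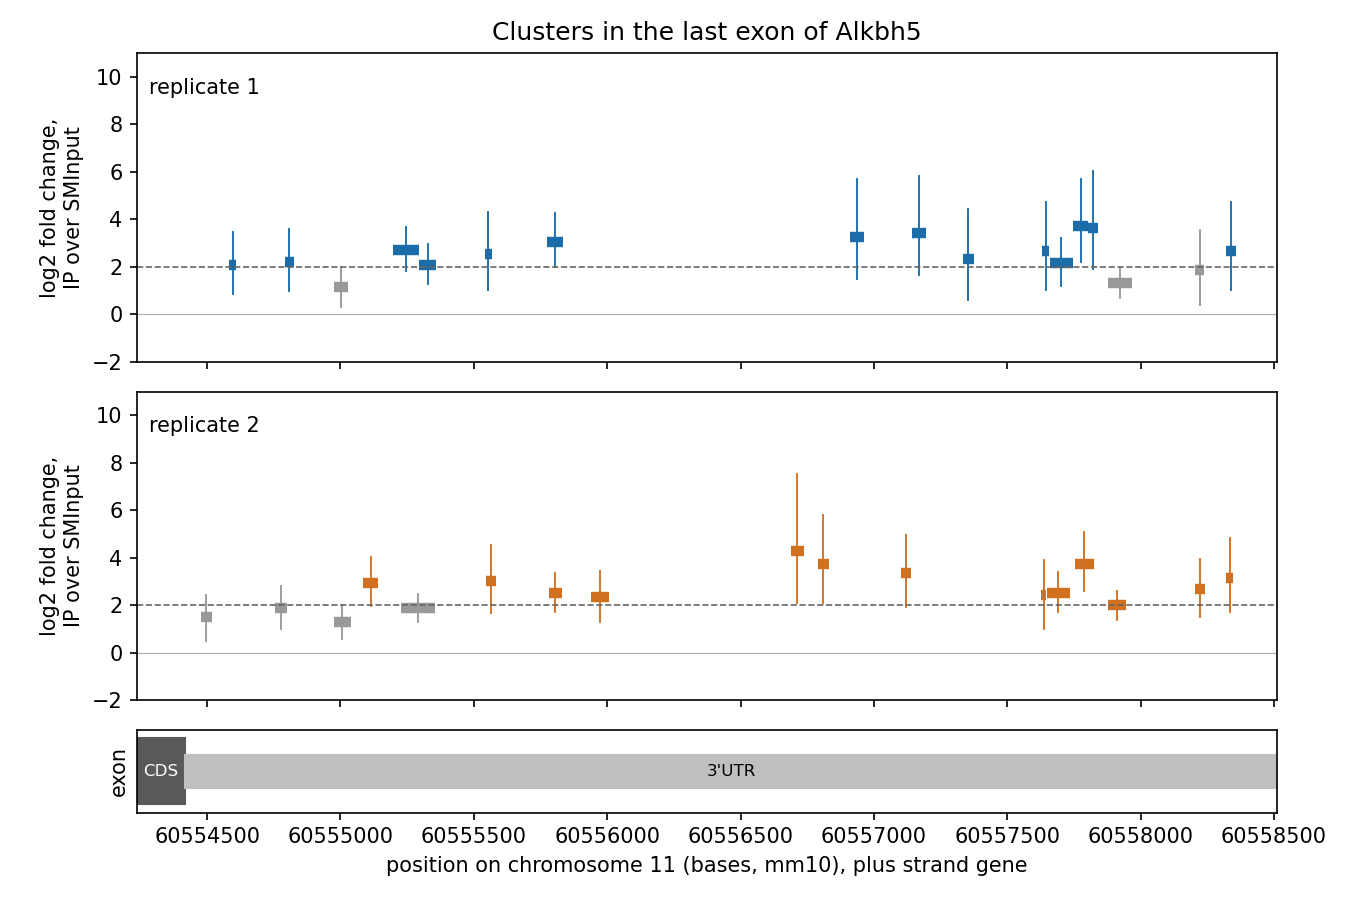
Clusters in the last exon of Alkbh5 in replicate 1 (top) and replicate 2 (middle) are drawn as thick bars over their bases in mm10, at the height of their log2 fold change of IP over SMInput, with 95% counting intervals as thin lines and grey for clusters that were not significant. In the 3′UTR, 14 of 17 clusters in replicate 1 and 13 of 17 in replicate 2 are significant, and none lies in the CDS at its left end.

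Taking all 9 genes, the 26 significant peaks of replicate 1 were split into 15 3′UTR, 6 CDS and 5 intronic peaks. The 43 of replicate 2 were split into 20, 7 and 16. The 3′UTR share was 57.7% and 46.5%, and over all significant peaks in protein-coding genes it was 44.8% and 37.9%. The share follows the gene that dominates: of the 3′UTR peaks, 14 of 15 in replicate 1 and 13 of 20 in replicate 2 were those of Alkbh5. Among the 7 writers, 0 of 8 peaks in replicate 1 and 4 of 16 in replicate 2 lay in 3′UTRs.

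Reads behind these peaks were fewer in replicate 2. The median significant peak of the 9 genes held 21 IP reads in replicate 1 against 10 in replicate 2, and 4 of 26 and 21 of 43 held fewer than 10. Over all protein-coding genes the medians were 13 and 8. Without Alkbh5 and Cbll1 the medians of the other 7 genes were 8 and 5.5, and 4 of 6 and 19 of 20 peaks held fewer than 10. A single SMInput read stood against 4 of the 26 and 11 of the 43. Of the peaks, 23 of 26 and 32 of 43 had a Benjamini-Hochberg adjusted P below 0.05 over all clusters of their table, and without Alkbh5 and Cbll1 it was 4 of 6 and 10 of 20.

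Sequences on the RNA strand were read around the shared peaks, to set them beside GGAC, a common core of m6A sites, and beside GAACA. The motifs AAACC as well as ACACA were also counted, all on the strand of the gene alone. GGAC lay in 7 of 13 windows of 100 bases centred on the shared peaks of replicate 1, 53.8%. Over all genes it lay in 24.0% of 3274 such windows in 3′UTRs, in 27.0% of 1709 in CDS, and in 24.5% of 36863 windows at all 3′UTR clusters of replicate 1. The 13 windows come from 2 genes and overlap where peaks touch, so they share sequence, and the difference was not tested. Among all significant peaks of the 9 genes, GGAC was in 8 of 26 windows in replicate 1 and 11 of 43 in replicate 2, 30.8% and 25.6%.

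AAACC was in 2 of the 13 windows, ACACA in 1 and GAACA in 0, where all shared 3′UTR windows gave 9.35%, 11.8% and 7.33% and all shared CDS windows 11.5%, 10.8% and 8.78%. By site rather than by peak, GGAC was in the 100 bases around the centre of 5 of the 8 shared sites, 2 of the 3 in Cbll1 and 3 of the 5 in Alkbh5. A match is a description of the letters and does not show that the base is methylated.

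The 30 bases around the centre of the shared stretch are printed for all 8 sites, because they show how unlike each other these stretches are. They are written 5′ to 3′ from mm10 on the strand of the gene, minus for Cbll1 and plus for Alkbh5, with T for U. Capitals mark GGAC or AAACC, which 4 of the 8 hold. From first to last they lie at chr12:31487332-31487361, chr12:31487538-31487567 and chr12:31487670-31487699 in the CDS of Cbll1. Those in the 3′UTR of Alkbh5 lie at chr11:60555544-60555573, chr11:60555792-60555821, chr11:60557669-60557698, chr11:60557774-60557803 and chr11:60558319-60558348.
Cbll1 nearest the stop codon: gaatgcagggcccgccttctcAAACCccac
Cbll1 middle site: accttatatgaatcatcctcctccaGGACc
Cbll1 farthest from the stop codon: ccatccaatgccacaccctccccaggctgc
Alkbh5 first site: ttgactttggcagccaggccaGGACtgagc
Alkbh5 next site: ttgttttcttgttttttactgctcttttcc
Alkbh5 repeat site: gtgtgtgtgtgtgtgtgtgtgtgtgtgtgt
Alkbh5 beside the repeat: gccttttctgtctgtcttagttgggcattt
Alkbh5 last site: tctggaaccactGGACtccggcttttgagc

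The rule that gives a peak its gene matters for Mettl3. When each peak goes to the gene whose transcription starts closest to it, whatever the strand, Mettl3 receives 1 significant peak in replicate 1 and 2 in replicate 2, and those at chr14:52294343-52294410 and chr14:52294354-52294422 overlap between the replicates. All 3 lie outside Mettl3 and on the opposite, plus strand, in the 3′UTR of Tox4, a gene whose end overlaps that of Mettl3. The shared peak had 14 IP and 5 SMInput reads in replicate 1 and 16 IP and 11 SMInput reads in replicate 2. The same rule gave Alkbh5 peaks of its neighbor Myo15, 1 in replicate 1 and 3 in replicate 2. It took peaks from other genes: Fto went from 4 to 2 in replicate 1 and from 13 to 7 in replicate 2, Virma from 2 to 1 in replicate 1, and Wtap from 1 to 0 in replicate 2.

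Other genes of the pathway were counted in the same way, beside the shares of the 12312 genes with a significant peak in replicate 1 (46.1%), in replicate 2 (64.6%), in both (39.1%) and with overlapping peaks (16.6%). Among 7 further m6A and m6Am methyltransferase genes (Rbm15b, Mettl16, Mettl5, Trmt112, Zcchc4, Pcif1, Mettl4), 3 had a significant peak in replicate 1, 2 in replicate 2 and 1, Mettl16, in both. Among 7 AlkB paralogs (Alkbh1, Alkbh2, Alkbh3, Alkbh4, Alkbh6, Alkbh7, Alkbh8), 2 had one in replicate 1, 6 in replicate 2 and 2 in both. Alkbh2 had 0 clusters in replicate 2, so 6 of these 7 had clusters in both replicates, as the 12312 genes do. In neither list did peaks of the replicates overlap, and 7 genes are few beside a share of 16.6%. Some AlkB paralogs had few clusters. Alkbh2, Alkbh4, Alkbh6 and Alkbh7 had 1, 3, 2 and 1 in replicate 1 and 0, 4, 2 and 2 in replicate 2. Alkbh1, Alkbh3 and Alkbh8 had 15, 30 and 14 in replicate 1 and 18, 17 and 9 in replicate 2. Alkbh5 had 27 in either, and the part of cluster number in the overlaps was not tested.

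All 5 YTH reader genes had a significant peak in both replicates, against 39.1% of the 12312 genes, and in Ythdf2, Ythdf3, Ythdc1 and Ythdc2 the peaks overlapped, 4 of 5 against 16.6%. The largest log2(fold change) among overlapping peaks was 3.01 in replicate 1 and 3.80 in replicate 2 for Ythdf2, and 2.88 and 3.30 for Ythdc2. For Ythdf3 it was 3.57 and 3.17, and for Ythdc1 2.35 and 2.01. Of the 3 IGF2BP readers, Igf2bp1 and Igf2bp3 had significant peaks in both replicates without overlap, and Igf2bp2 had 3 clusters in replicate 1 and 0 in replicate 2. These lists are short, and differences between them were not tested.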

How the data were processed

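The deposited tables list the read clusters of each replicate. The authors trimmed adapters (cutadapt), removed rRNA reads (Bowtie2), aligned the rest to mm10 (STAR), collapsed PCR duplicates by molecular identifiers, called clusters with Clipper and compared IP with SMInput reads in each. The deposited −log10 P values are the authors' tests of that comparison (chi-square or Fisher's exact test), listed as 0 without enrichment and at most as 400. The deposited log2 values are fold changes by the authors, IP over SMInput reads after scaling to library totals.

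Library totals and reads of each cluster were recovered as the whole numbers that return both listed values within 0.001 of the −log10 P, with Fisher's exact test where an observed or expected number was below 5 and Yates' correction otherwise. A single solution was found for 99.9% and 99.7% of clusters between 0 and 400, and clusters without one have no read numbers here. The procedure was tested on simulated data, where 1757 of 1757 clusters at the totals of replicate 1 and 1899 of 1902 at those of replicate 2 were recovered. Simulated reads were spread evenly over a range reaching well above 4 IP reads, the median of clusters in protein-coding genes. Their P values came from the formula used for recovery, so the test cannot show that this formula is the authors'. Its Yates' correction, not cut off at 0, was inferred from the listed values. Regions came from basic GENCODE M21 transcripts at the cluster centre, with 3′UTR before CDS, 5′UTR, noncoding exon and intron, and the stop codon counted with the CDS. Adjusted P values were computed over each whole table by the Benjamini-Hochberg method. Named sites were every site with overlapping significant peaks, otherwise the significant peak with the most IP reads, or the cluster with the highest −log10 P. Values of other clusters were chosen for the text after they were seen. With 1 IP and 1 SMInput library in each of 2 replicates, groups of samples were not tested against each other. Members and lists were chosen with earlier results of these data known. Python 3.11.15, scipy 1.17.1, pandas 2.3.3, pysam 0.24.0 and bedtools 2.31.1 were used.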

Additional observations from a re-analysis of the deposited data

How the results depend on the processing

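Alternatives were run for 7 results. With both thresholds at 3, the 9 genes kept 13 significant peaks in either replicate, genes with one in both were 2, Alkbh5 and Cbll1, and the 3′UTR share was 46.2% in replicate 1 and 61.5% in replicate 2. With at least 10 IP reads, either replicate had 22 peaks, with a 3′UTR share of 68.2% in replicate 1 and 72.7% in replicate 2. The order of the replicates in 3′UTR share and the surplus of peaks in replicate 2 therefore depend on the setting. With centres in exons alone, replicate 2 had 27 peaks. With GGAC counted in all significant peaks of replicate 2, its share was 25.6%. That lies between the 24.0% of all shared 3′UTR windows and the 27.0% of all shared CDS windows. Stricter settings leave fewer peaks by construction, and for the shares the cause was not tested. Without replicate 1 or without replicate 2, the number of genes with a significant peak was 4 to 7, which then counts genes in 1 replicate. Leaving out a replicate gives no value for overlapping peaks. Over the other settings, Alkbh5 and Cbll1 had overlapping peaks under every one, and the nearest start site added Mettl3 through peaks of Tox4. A window for each joined site in place of each peak, chosen after seeing the data, gave a GGAC share of 62.5%.

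No paired analysis was possible because the results above use peaks whose deposited values already compare the IP with the SMInput of their own replicate. The pairing is thus part of every value used. At the 8 shared sites both replicates have such a value, and these values were not tested together. Each replicate has 1 IP and 1 SMInput library, so intervals hold counting error and no spread between animals. Clusters of a gene are not replicates, and reads shared by touching clusters were not separated. SMInput was deeper in replicate 2, where fewer IP reads pass the thresholds, so the peak counts of the replicates are not on the same footing. For Mettl3, Zc3h13 and, in replicate 1, Mettl14, low coverage and lack of enrichment cannot be told apart.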

Other observations

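The lowest log2(fold change) of any cluster of the 9 genes lay in the 5′UTR of Wtap in both replicates. At chr17:12992121-12992153 in replicate 1 it was −5.30, which is 39.5-fold lower in the IP than in the SMInput. At chr17:12992090-12992183 in replicate 2 it was −3.75, or 13.5-fold lower. The P values of clusters without enrichment are listed as 0 on the −log10 scale, so the reads behind them cannot be recovered in full. The smallest whole numbers that return the listed fold changes are 1 IP read against 67 SMInput reads in replicate 1 and 5 against 243 in replicate 2. Of the remaining clusters of the 9 genes, the lowest value was −1.14 in replicate 1, in the CDS of Virma, and −1.21 in replicate 2, in the CDS of Fto.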
